A study of Schizosaccharomyces pombe with 8 samples.

Results

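The 7 genes described here act in making and breaking down 2 small protective molecules of the fission yeast Schizosaccharomyces pombe, the disaccharide trehalose and the polyol glycerol. They are tps1, tpp1, ntp1, gpd1, gpd2, gld1 and dak1. They were chosen by name, as the rows of the expression table that carry these symbols, and all 7 were found among 7092 genes. All 7 also passed the filter on low levels, a mean of at least 1 FPKM over the groups, as did 6281 genes in all. FPKM counts sequenced fragments relative to the length of the transcript and to the size of the library, so levels can be compared between genes per length.

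RNA was sequenced from 8 libraries in 4 groups of 2. The wild-type strain has the genotype h- leu1-32 ura4-D18, which leaves it unable to make leucine or uracil. The strain labelled ∆wee1 is given as h- wee1::ura4+ leu-32 ura4-D18, so both strains share the leucine and uracil markers, and the kinase gene wee1, whose product delays mitosis, carries the ura4+ marker. Each strain was grown to mid-log phase in rich medium and taken either untreated or after 15 min in 20 mM H2O2, a strong oxidative stress. The description of the series states the question as the effect of that treatment in the wee1 mutant, and calls the 2 libraries of a group biological replicates, without saying whether they came from separate cultures. For each gene the files hold 1 FPKM value per group, pooled over its libraries. Replicate values can therefore not be shown, and the read depth is unknown.

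The pools showed 2 features that touch every comparison below. The wee1 transcript had levels of 8.91 and 8.17 FPKM in untreated and treated wild type, but of 16.1 and 15.5 FPKM in the corresponding ∆wee1-labelled pools, and both strain differences are called in the authors' deposited table. The level of wee1 thus goes against the deletion label, so these pools are called "labelled ∆wee1" throughout and each genotype direction rests on that label. The sources used here do not say which bases of wee1 the marker replaced. The marker ura4 followed the label, at 0.131 and 0.0704 FPKM in the wild-type pools against 185 and 235 FPKM in those labelled ∆wee1. Despite that size, neither ura4 strain difference is called in the authors' deposited table (q-values 0.285 untreated and 0.546 after H2O2). Nuclear protein-coding genes held 95.1% and 73.2% of all FPKM in untreated and treated wild type, and 86.8% and 93.5% in the untreated and treated ∆wee1-labelled pools. The wild-type H2O2 pool was the lowest of these, and the part of this share in the results was not tested.

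Trehalose is built from UDP-glucose and glucose 6-phosphate by trehalose-6-phosphate synthase, dephosphorylated by a phosphatase, and split back into glucose by trehalase. It stabilises proteins and membranes when yeast is heated, dried or oxidised. Glycerol is made by reducing dihydroxyacetone phosphate to glycerol 3-phosphate, and it balances the cell against high external osmolarity. In fission yeast glycerol is used up again by a dehydrogenase that turns it into dihydroxyacetone, which a kinase returns to glycolysis. Several of these genes are known targets of the stress MAP kinase Sty1 and its transcription factor pair Atf1 and Pcr1, which binds the cAMP response element (CRE). The cAMP-dependent kinase Pka1 acts against some of the same genes, in part through Rst2, the factor that binds the stress-starvation response element (STREP).

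All 7 genes have a single exon in the RefSeq annotation of assembly ASM294v3. The trehalose genes are tps1 (SPAC328.03, chromosome I, 3479149 to 3481305, plus strand), tpp1 (SPAC19G12.15c, chromosome I, 4074998 to 4077857, minus strand) and ntp1 (SPBC660.07, chromosome II, 206581 to 209641, plus strand). The glycerol genes are gpd1 (SPBC215.05, chromosome II, 4035566 to 4037342, plus strand), gpd2 (SPAC23D3.04c, chromosome I, 4342230 to 4343927, minus strand), gld1 (SPAC13F5.03c, chromosome I, 2174641 to 2176572, minus strand) and dak1 (SPAC22A12.11, chromosome I, 1176920 to 1178897, plus strand). The sources used here do not give the build behind the authors' files, so these coordinates are those of RefSeq alone.

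The 300 bases before the start of ntp1, gpd1 and gld1 are printed because ntp1 and gld1 had the steepest rise and fall of the 7 after H2O2 in both strains, and because ntp1 and gpd1 hold the CRE core. They come from RefSeq ASM294v3, read along the strand of each gene, at chrII:206281-206580 for ntp1, chrII:4035266-4035565 for gpd1 and chrI:2176573-2176872, minus strand, for gld1. Capitals mark the CRE core TGACGT on either strand, so that ACGTCA is the core on the strand opposite the gene.
ntp1: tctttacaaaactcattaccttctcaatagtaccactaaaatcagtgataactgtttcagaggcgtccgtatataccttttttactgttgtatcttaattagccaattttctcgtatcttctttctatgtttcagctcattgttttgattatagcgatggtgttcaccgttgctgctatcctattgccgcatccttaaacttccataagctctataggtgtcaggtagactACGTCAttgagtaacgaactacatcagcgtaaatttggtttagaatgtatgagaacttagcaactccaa
gpd1: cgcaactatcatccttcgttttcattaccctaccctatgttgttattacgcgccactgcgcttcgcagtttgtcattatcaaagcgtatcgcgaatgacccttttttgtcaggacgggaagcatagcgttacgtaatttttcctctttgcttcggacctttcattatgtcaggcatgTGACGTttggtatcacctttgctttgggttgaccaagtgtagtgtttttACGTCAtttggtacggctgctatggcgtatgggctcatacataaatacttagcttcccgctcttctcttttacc
gld1: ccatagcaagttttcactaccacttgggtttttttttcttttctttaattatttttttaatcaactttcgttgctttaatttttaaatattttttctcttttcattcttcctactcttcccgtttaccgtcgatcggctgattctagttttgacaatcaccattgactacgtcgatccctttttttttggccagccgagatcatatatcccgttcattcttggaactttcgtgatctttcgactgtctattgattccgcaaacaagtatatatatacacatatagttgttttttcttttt

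The CRE core was found within 300 bases of 2 of the 7 genes. The gpd1 window holds 2 copies, at 123 to 118 bases before the gene start on the gene's strand and at 74 to 69 bases on the other strand, and the ntp1 window holds 1 copy at 69 to 64 bases on the other strand. Among 5112 upstream windows of the same length, 6.03% hold this core on either strand. With 1000 bases the same 2 genes had a match, ntp1 having another copy at 703 to 698 bases, against 14.9% of all windows. The STREP core CCCCTC was in none of the 7 windows of 300 bases (1.94% of all windows) and, with 1000 bases, in gld1 alone of the 7, at 985 to 980 and 439 to 434 bases on the opposite strand (7.51% of all windows). The AP-1 type sites TTACTAA and TTAGTCA, which are recognised by the oxidative stress factor Pap1, had no match in any of the 7 windows of either length, where 12.7% and 4.81% of all shorter windows and 32.7% and 13.5% of all longer windows hold them. Only these 2 forms were searched for Pap1. The palindrome TTACGTAA, present in the printed gpd1 window, was not among the motifs searched. None of the matches shares bases with a match of another motif. A match of letters describes the window and is no evidence that a factor binds there, and a missing match says nothing of the factor.

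**Figure D1:**
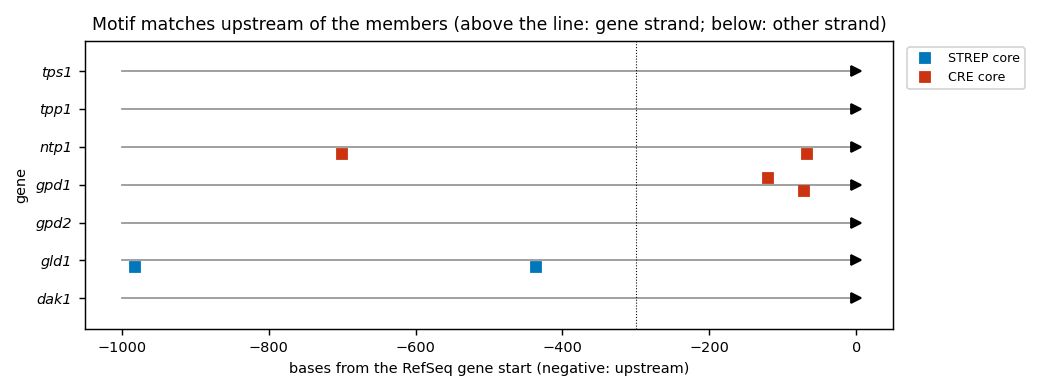
Matches of the motif cores in the 1000 bases upstream of each of the 7 genes; the x axis is the distance in bases from the RefSeq gene start, squares are matches (red CRE core, blue STREP core), above the line on the gene's strand and below it on the other strand, and the dotted line marks 300 bases. The CRE core is close to the start in gpd1, with 2 matches, and in ntp1, with 1, while gld1 has 2 STREP cores, both beyond 300 bases.

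Changes are given below as log2 ratios of FPKM + 1, each ± the standard error implied by the authors' test statistic, with n = 2 libraries pooled in each group. The words rose, fell and differed are used where the authors' deposited table has a q-value under 0.05, which is also what a call means here. Levels are relative to the rest of each pool, so a change in every cell and a change in some of the cells cannot be told apart. For many of the results values under another scaling are also given, either with quantile normalization, which gives all pools the same distribution of levels, or with scaling to the summed FPKM of nuclear protein-coding genes, called summed-coding scaling.

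The H2O2 comparison within wild type asked which of the genes respond to the oxidant. Trehalase rose and glycerol dehydrogenase fell, and no other member passed the test: the authors' deposited table calls 2 of the 7, 1 in each direction, where it calls 14.4% of the 6277 genes tested, 6.96% higher and 7.47% lower. In the pools labelled ∆wee1 it calls 4 of the 7, with tps1, ntp1 and gpd1 higher and gld1 lower, where 9.47% of 6312 genes are called, 5.34% higher and 4.13% lower. The median log2 ratio of the 7 was 0.23 in wild type and 0.25 under the ∆wee1 label, beside −0.03 in each for all 4949 nuclear protein-coding genes measured. The wild-type median turned to −0.16 with quantile normalization, beside −0.14 for all genes, and to −0.02 with summed-coding scaling, beside −0.27. The median under the ∆wee1 label was 0.03 and 0.11 in those scalings. With scaling by the median ratio the medians were 0.29 in wild type and 0.30 under the ∆wee1 label, beside 0.02 each over all genes.

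The genotype comparison without treatment found none of the 7 genes different in the authors' deposited table (Cuffdiff), where 8.85% of 6292 genes are called. At an unadjusted p-value under 0.05 that table lists 1 of the 7, gpd2, where it lists 17.0% of all genes. After H2O2 it calls 2 of the 7, tps1 higher and gpd2 lower in the pool labelled ∆wee1, where 13.5% of 6333 genes are called, 6.51% higher and 7.01% lower. Both of these calls are lost at a q-value under 0.01. The median log2 ratio of the 7, labelled ∆wee1 over wild type, was 0.04 untreated and 0.16 after H2O2, beside 0.03 and 0.05 over all nuclear protein-coding genes. With summed-coding scaling it was 0.24 and 0.47, beside 0.22 and 0.35 over all.

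**Figure D2:**
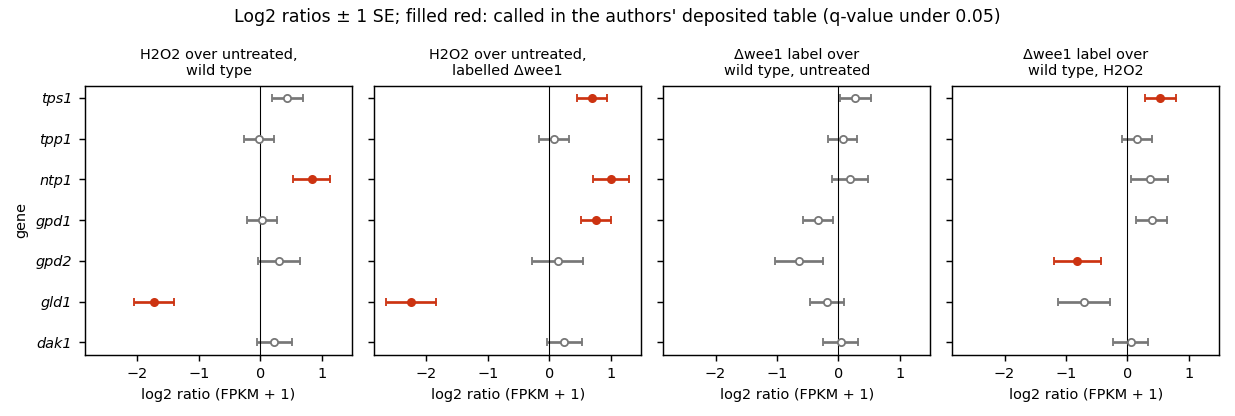
Log2 ratios of FPKM + 1 (x axis) for the 7 genes (y axis) in the 4 comparisons, with bars of 1 implied standard error; filled red points are called in the authors' deposited table at a q-value under 0.05 and open grey points are not. The gld1 points lie far to the left in both H2O2 comparisons (−1.73 and −2.25), ntp1 lies to the right in both (0.84 and 1.0), and gpd1 is near 0 in wild type (0.03) but at 0.75 under the ∆wee1 label.

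Trehalose synthesis is described first. The level of tps1, the trehalose-6-phosphate synthase, was 287 FPKM in wild type and 389 FPKM once treated, against 348 FPKM and, once treated, 565 FPKM under the ∆wee1 label. The treated pool labelled ∆wee1 was the highest, and each treated pool stood above its own control. The H2O2 ratio was 0.70 ± 0.25 under the ∆wee1 label, where the authors' deposited table lists a q-value of 0.000819, the lowest it lists. In wild type the ratio was 0.44 ± 0.25, not called in the authors' deposited table (q-value 0.0754), and it was 0.07 with quantile normalization and 0.19 with summed-coding scaling. With scaling by the median ratio the wild-type response was 0.50. The response under the ∆wee1 label was 0.46 with quantile normalization. The difference of the 2 responses was 0.26 ± 0.35 (normal z test, adjusted p = 1.0 over 6108 genes), so the gene is not shown to respond differently in the strains. Of the neighbours in the order of levels, only the highest pair differed in the authors' deposited table: the treated pool labelled ∆wee1 exceeded treated wild type by 0.54 ± 0.25 (q-value 0.0257). That strain difference was 0.85 with summed-coding scaling. The whole range spanned 1.97-fold.

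The next enzyme, the trehalose-6-phosphate phosphatase tpp1, was nearly level. Its untreated and treated levels were 144 and 143 FPKM in wild type and 151 and 159 FPKM under the ∆wee1 label. The lowest and the highest pool differed 1.12-fold, and no pair of neighbours in the order differed. The H2O2 ratio was −0.02 ± 0.24 in wild type (95% interval −0.50 to 0.46) and 0.08 ± 0.24 under the ∆wee1 label (−0.40 to 0.55). With quantile normalization and summed-coding scaling it was −0.27 and −0.26 in wild type and −0.04 and −0.06 under the ∆wee1 label, so the direction of these small ratios depends on the scaling. The level of tps1 over that of tpp1 was 1.99 in untreated wild type and 2.73 in treated wild type, with standard errors of 0.25 on the log2 scale. Under the ∆wee1 label it was 2.30 untreated and 3.54 after H2O2. The synthase was thus above the phosphatase per length in all 4 pools. The deposited protein sequences of tps1 and tpp1 align with 37.2% identical residues, and the 2 genes lie far apart on chromosome I.

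The transcript for trehalose breakdown rose in both strains. The neutral trehalase ntp1, which splits trehalose into glucose and whose enzyme is switched on by phosphorylation under stress, went from 104 FPKM untreated to 187 FPKM treated in wild type. Under the ∆wee1 label it went from 119.8 FPKM to 241 FPKM. Both treated pools were above both untreated pools. The gene rose by 0.84 ± 0.30 in wild type (q-value 0.00153 in the authors' deposited table) and by 1.0 ± 0.30 under the ∆wee1 label (q-value 0.000819 there), and the responses differed by 0.16 ± 0.42 (normal z test, adjusted p = 1.0). In the order of levels the authors' deposited table separates the middle pair, the untreated pool labelled ∆wee1 and treated wild type (q-value 0.0184, where 22.4% of all genes tested are called), but neither the 2 untreated pools nor the 2 treated pools. The level of tps1 stayed above that of ntp1, at 2.75 and 2.90 times in the untreated wild-type and ∆wee1-label pools and 2.08 and 2.34 times in the treated pools, with log2 standard errors between 0.27 and 0.28.

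A long noncoding RNA, SPNCRNA.1327, runs opposite to ntp1, shares 330 bases with it (10.8% of the gene) and also covers part of the printed upstream window. It was singled out after its values were seen. Its untreated and treated levels were 5.88 and 40.5 FPKM in wild type and 7.32 and 38.7 FPKM under the ∆wee1 label. These log2 ratios of 2.59 ± 1.44 and 2.26 ± 1.53 are not called in the authors' deposited table (q-values 0.356 and 0.169). The library kit keeps strand, but the sources used here do not give the strand setting used for counting, so reads of ntp1 and of this RNA may not have been told apart.

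**Figure D3:**
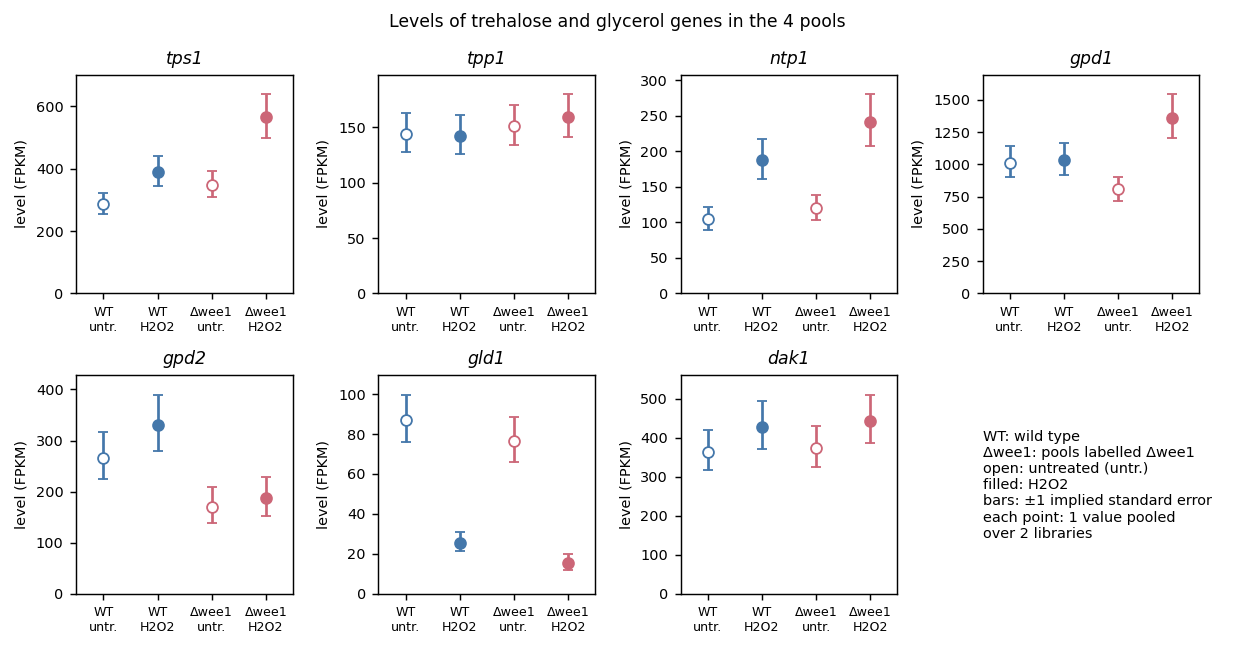
Pooled FPKM (y axis, starting at 0 and scaled for each gene) of the 7 genes in the 4 pools, wild type in blue and the pools labelled ∆wee1 in red, open untreated and filled after H2O2; bars are 1 implied standard error. ntp1 is higher and gld1 lower in both treated pools, gpd1 is highest at 1360.1 FPKM in the treated pool labelled ∆wee1, and gpd2 is lower in both pools with that label.

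Glycerol synthesis starts with the NAD-dependent glycerol-3-phosphate dehydrogenases gpd1 and gpd2, whose deposited protein sequences align with 60.1% identical residues. Of the 7 genes, gpd1 had the highest level in every pool, and it is the form known in fission yeast for its induction by osmotic stress. Wild type had 1012 FPKM untreated and 1035 FPKM treated, and the ∆wee1-labelled pools had 806 FPKM untreated and 1360.1 FPKM treated. The wild-type pools were nearly equal and lay between the 2 pools labelled ∆wee1. The gene rose by 0.75 ± 0.25 under the ∆wee1 label (q-value 0.000819 in the authors' deposited table), against 0.03 ± 0.24 in wild type (q-value 0.958 there). Labelled ∆wee1 over wild type, the log2 ratio was −0.33 ± 0.24 untreated and 0.39 ± 0.25 after H2O2, neither of them called in the authors' deposited table (q-values 0.220 and 0.136). No neighbours in the order of levels were separated in that table.

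The difference between the strains in the gpd1 response was tested directly. It was 0.72 ± 0.35 (95% interval 0.04 to 1.40), with an unadjusted p of 0.0373 in the normal z test across all genes and an adjusted p of 1.0, so it does not pass. None of the 7 genes passed this test, where 19 of 6108 genes (0.311%) did. At an unadjusted p under 0.05 gpd1 was the 1 member listed, where 1.54% of all genes were. The z values of all genes had a robust SD of 0.451 in place of about 1, so the implied errors are too wide for most genes. With errors shrunk by that factor the adjusted p for gpd1 was 0.000277, and 4.88% of all genes passed. With errors shrunk to the size that the authors' p-values imply, it was 0.215. In the other settings tried the adjusted p for gpd1 was between 0.150, under quantile normalization, and 1.0.

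The wild-type side of this difference also rests on the scaling of the treated pool. Quantile normalization put the gpd1 response of wild type at −0.60, and summed-coding scaling put it at −0.22. The strain ratio of gpd1 after H2O2 was 0.82 and 0.71 in those scalings, the untreated strain ratio was −0.13 with summed-coding scaling, and the response difference was 1.18 with quantile normalization. Scaling by the median ratio put the wild-type response at 0.09 and the strain ratio after H2O2 at 0.37. The response under the ∆wee1 label stayed positive in each scaling tried. RefSeq places a noncoding RNA on the opposite strand over 74.6% of gpd1, which the files do not list, so its part in the gpd1 values was not tested.

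**Figure D4:**
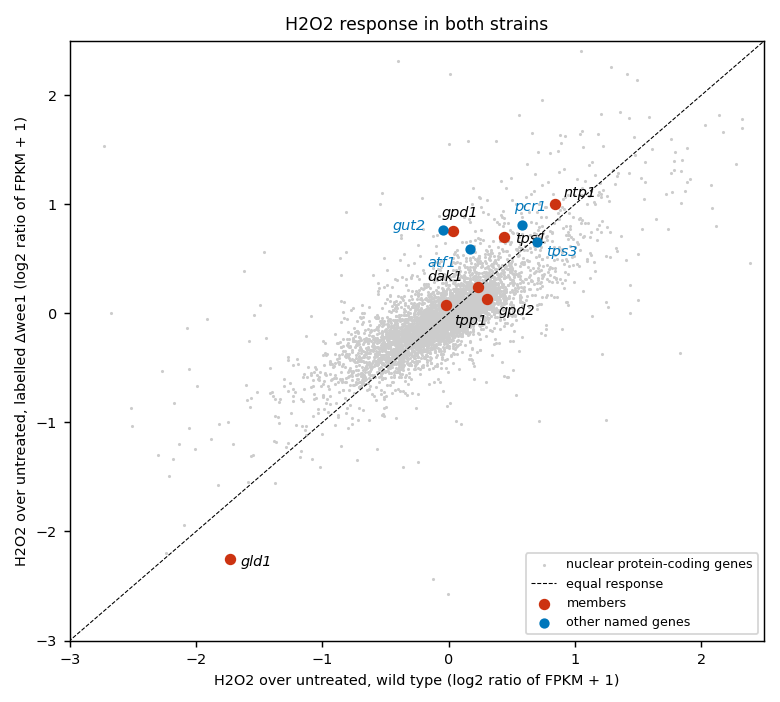
H2O2 log2 ratio of FPKM + 1 in wild type (x axis) against that in the pools labelled ∆wee1 (y axis) for 4949 nuclear protein-coding genes (grey, 24 of them outside the axes), the 7 genes (red) and 4 partner or regulator genes (blue); the dashed line marks equal responses. gpd1 (0.03, 0.75) and gut2 (−0.05, 0.77) lie above the dashed line, ntp1 lies at the upper right (0.84, 1.0) and gld1 at the lower left (−1.73, −2.25).

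The second form, gpd2, was lower under the ∆wee1 label after H2O2, and its H2O2 responses did not pass the test. Wild type had 266 FPKM untreated and 329.7 FPKM treated, and the ∆wee1-labelled pools had 170.1 FPKM untreated and 187 FPKM treated. Both pools labelled ∆wee1 were below both wild-type pools. After H2O2 the level under the ∆wee1 label was lower by a log2 ratio of −0.81 ± 0.38 (q-value 0.0261 in the authors' deposited table). The untreated ratio of −0.64 ± 0.39 pointed the same way without being called in the authors' deposited table (q-value 0.0993). The H2O2 ratio was 0.31 ± 0.35 in wild type and 0.14 ± 0.42 under the ∆wee1 label, neither of them called. In wild type it turned to −0.02 with quantile normalization and was 0.06 with summed-coding scaling, and under the ∆wee1 label it was 0.02 with quantile normalization and close to 0 with summed-coding scaling. Scaling by the median ratio gave H2O2 ratios of 0.36 in wild type and 0.19 under the ∆wee1 label. The strain ratio after H2O2 was −0.50 with summed-coding scaling. No neighbours in the order of levels were separated. The level of gpd1 over that of gpd2 was 3.80 in untreated and 3.14 in treated wild type, and 4.74 and 7.27 in the untreated and treated pools labelled ∆wee1, with log2 standard errors between 0.30 and 0.35.

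Glycerol use had the steepest change of the 7 genes. The glycerol dehydrogenase gld1, which oxidises glycerol to dihydroxyacetone, went from 87.2 FPKM untreated to 25.6 FPKM treated in wild type. Under the ∆wee1 label it went from 76.5 FPKM to 15.3 FPKM. The treated pools lay far below the untreated pools, a range of 5.71-fold, and gld1 moved from rank 1283 to rank 2930 of 4949 nuclear protein-coding genes in wild type and from 1448 to 3842 under the ∆wee1 label. The gene fell by 1.73 ± 0.32 on the log2 scale in wild type and by 2.25 ± 0.40 under the ∆wee1 label, each at the lowest q-value in the authors' deposited table (0.000819). The responses differed by −0.52 ± 0.52 (normal z test, adjusted p = 1.0). Within treatment the strains were not separated in the authors' deposited table, with log2 ratios of −0.19 ± 0.28 untreated and −0.71 ± 0.43 after H2O2 (q-value 0.128). With summed-coding scaling these strain ratios were 0.01, with the sign turned, and −0.41.

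The dihydroxyacetone kinase dak1, which acts on the product of gld1, passed no test. Its untreated and treated levels were 365 and 429 FPKM in wild type, and 375 and 445 FPKM under the ∆wee1 label. The range was 1.22-fold, and none of the comparisons or neighbouring pairs is called in the authors' deposited table. The H2O2 ratio was 0.23 ± 0.29 in wild type (95% interval −0.33 to 0.79) and 0.25 ± 0.28 under the ∆wee1 label (−0.31 to 0.80). In wild type it turned to −0.16 with quantile normalization and to −0.02 with summed-coding scaling, and under the ∆wee1 label it was 0.03 and 0.11. Scaling by the median ratio gave 0.29 in wild type and 0.30 under the ∆wee1 label. The level of dak1 over that of gld1 was 4.18 and 4.90 in the untreated wild-type and ∆wee1-label pools, and 16.8 and 29.1 in the treated pools, with log2 standard errors between 0.28 and 0.42. The kinase was thus above the dehydrogenase per length in all 4 pools.

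Each gene's profile was compared with 4693 other nuclear protein-coding genes of at least 5 FPKM, by the distance between log2 values centred on their own mean over the 4 groups. For gld1 the nearest profile was zwf2, a probable glucose-6-phosphate dehydrogenase, at a distance of 0.43, with 74.6 and 15.0 FPKM in untreated and treated wild type and 63.3 and 13.0 FPKM under the ∆wee1 label. The next were pho842, a putative phosphate transporter (0.53), and SPBC2A9.14 (0.69), and no gene lay within 0.25 of gld1. Within that radius lay 17 genes for gpd1, 25 for ntp1, 48 for tps1, 125 for gpd2, 724 for dak1 and 1143 for tpp1. The distance is not scaled for the size of a gene's changes, so flat profiles such as those of tpp1 and dak1 have more neighbours by construction. The implied log2 standard errors of gld1 were between 0.19 and 0.37 per pool, so a radius of 0.25 is narrow for this gene. These counts therefore do not show how particular a profile is. The nearest to gpd1 were pmp3 (0.15), rex3 (0.16) and atd1, a putative aldehyde dehydrogenase (0.16). The nearest to ntp1 were sfk1 (0.06), fus1 (0.10) and rrp9 (0.10), and to tps1 mil1 (0.06), rok1 (0.07) and tbp1, the TATA-binding protein (0.08). For gpd2 they were wdr55 (0.02), rps403, a ribosomal protein (0.04), and apt1 (0.06). For tpp1 they were trp4, mtq2 and iss1 (0.02 each), and for dak1 pgl1 (0.02), met3 (0.03) and pho8 (0.03). A profile of 4 points gives these distances little resolution among the flat genes.

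Other genes of the trehalose side were taken from a list of 8, of which 7 were matched and measured, glk1 being the exception. In wild type the authors' deposited table calls 2 of the 7 higher and none lower after H2O2. Of all genes tested, 6.96% are called higher and 7.47% lower there. Under the ∆wee1 label that table calls 1 of the 7 higher (5.34% of all genes). It also calls 1 of the 7 higher under the ∆wee1 label than in wild type, both untreated (4.64% of all genes) and after H2O2 (6.51%). The gene in all these counts is tps3, related to the synthase (its protein aligns to tps1 with 36.2% identity), at 74.6 and 122 FPKM in wild type and 107.8 and 170.3 FPKM under the ∆wee1 label. It rose by 0.70 ± 0.21 in wild type and by 0.66 ± 0.22 under the ∆wee1 label, and it was higher under that label by 0.52 ± 0.21 untreated and 0.48 ± 0.22 after H2O2. The other call was fyu1, a UTP-glucose-1-phosphate uridylyltransferase that makes the UDP-glucose used by Tps1, which rose by 0.50 ± 0.25 in wild type and had a ratio of 0.40 ± 0.25 under the ∆wee1 label. The further synthase homologue tps2 (32.5% identity) was not called, at 22.5 to 26.5 FPKM, and neither were the hexokinase genes hxk1 and hxk2. The median H2O2 ratio of the 7 was −0.05 in wild type and −0.04 under the ∆wee1 label, beside −0.03 in each over all nuclear protein-coding genes.

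Of 6 other glycerol-side genes, the authors' deposited table calls none after H2O2 in wild type, where it calls 14.4% of all genes. At an unadjusted p-value under 0.05 that table (Cuffdiff) lists 2 of the 6, where it lists 24.1% of all genes. Under the ∆wee1 label 1 of the 6 is called higher, where 5.34% of all genes are. That gene is gut2, the mitochondrial glycerol-3-phosphate dehydrogenase, which feeds glycerol 3-phosphate back into dihydroxyacetone phosphate. It stood at 165 and 160.1 FPKM in wild type, and rose from 102.8 to 175 FPKM under the ∆wee1 label (0.77 ± 0.23, against −0.05 ± 0.23 in wild type). Its untreated level was lower under the ∆wee1 label by a log2 ratio of −0.68 ± 0.23, called in the authors' deposited table, and the 2 responses differed by 0.81 ± 0.33 (normal z test, unadjusted p of 0.0138, adjusted p = 1.0). With errors shrunk by the robust SD the adjusted p was 5.30e-06, and with errors shrunk to the authors' p-values it was 0.0503. As in gpd1, the 2 wild-type pools of gut2 were nearly equal as deposited and the untreated pool labelled ∆wee1 was the lowest. Summed-coding scaling lowers wild-type H2O2 ratios (median −0.27 over all nuclear protein-coding genes, −0.03 as deposited), so this near-equality also rests on the scaling.

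The remaining calls among the glycerol genes concern the strain label, where 4.64% of all genes are called higher untreated and 6.51% after H2O2. dak2, the second dihydroxyacetone kinase (45.0% identity to Dak1), was higher under the ∆wee1 label by 0.68 ± 0.26 untreated and 0.86 ± 0.26 after H2O2. SPAC977.17, a predicted membrane channel of the aquaglyceroporin family, was higher under the ∆wee1 label after H2O2 by 0.83 ± 0.34, at 15.8 against 8.43 FPKM. Its 2 H2O2 responses differed by 0.69 ± 0.48, which did not pass the normal z test. The adjusted p was 0.0365 with errors shrunk by the robust SD and 0.973 with errors shrunk to the authors' p-values. dak2 and SPAC977.17 have consecutive systematic names (SPAC977.16c and SPAC977.17), and whether their strain differences are separate was not tested. The genes gup1, tpi1 and fba1 were not called in these comparisons of the authors' deposited table.

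The regulators were 16 genes of the stress MAP kinase, cAMP and TOR pathways, all measured. In wild type 1 was called higher and 2 lower after H2O2 in the authors' deposited table, where 6.96% and 7.47% of all genes were. Under the ∆wee1 label 3 were called higher and none lower, where 5.34% and 4.13% of all genes were. The gene for the transcription factor subunit pcr1 rose in both strains, by 0.58 ± 0.21 in wild type and 0.81 ± 0.21 under the ∆wee1 label. The gene for its partner atf1 rose by 0.59 ± 0.20 under the ∆wee1 label, from 47.4 to 71.8 FPKM, with a ratio of 0.17 ± 0.21 in wild type. The third rise under the ∆wee1 label was pka1, the catalytic subunit of the cAMP-dependent kinase (0.46 ± 0.20, against 0.23 ± 0.20 in wild type). The response differences of atf1 and pka1, 0.42 ± 0.29 and 0.23 ± 0.29, did not pass the normal z test (adjusted p = 1.0 each). With errors shrunk by the robust SD the adjusted p of that test was 0.0334 for atf1 and 0.484 for pka1. With errors shrunk to the authors' p-values it was 0.948 for atf1. The 2 that fell in wild type were gad8, a kinase downstream of Tor1 (−0.71 ± 0.26), and pmk1, the MAP kinase of the cell integrity pathway (−0.83 ± 0.27). The response difference of pmk1 was 0.54 ± 0.36 and did not pass the normal z test. Its adjusted p was 0.0263 with errors shrunk by the robust SD and 0.887 with errors shrunk to the authors' p-values.

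**Figure D5:**
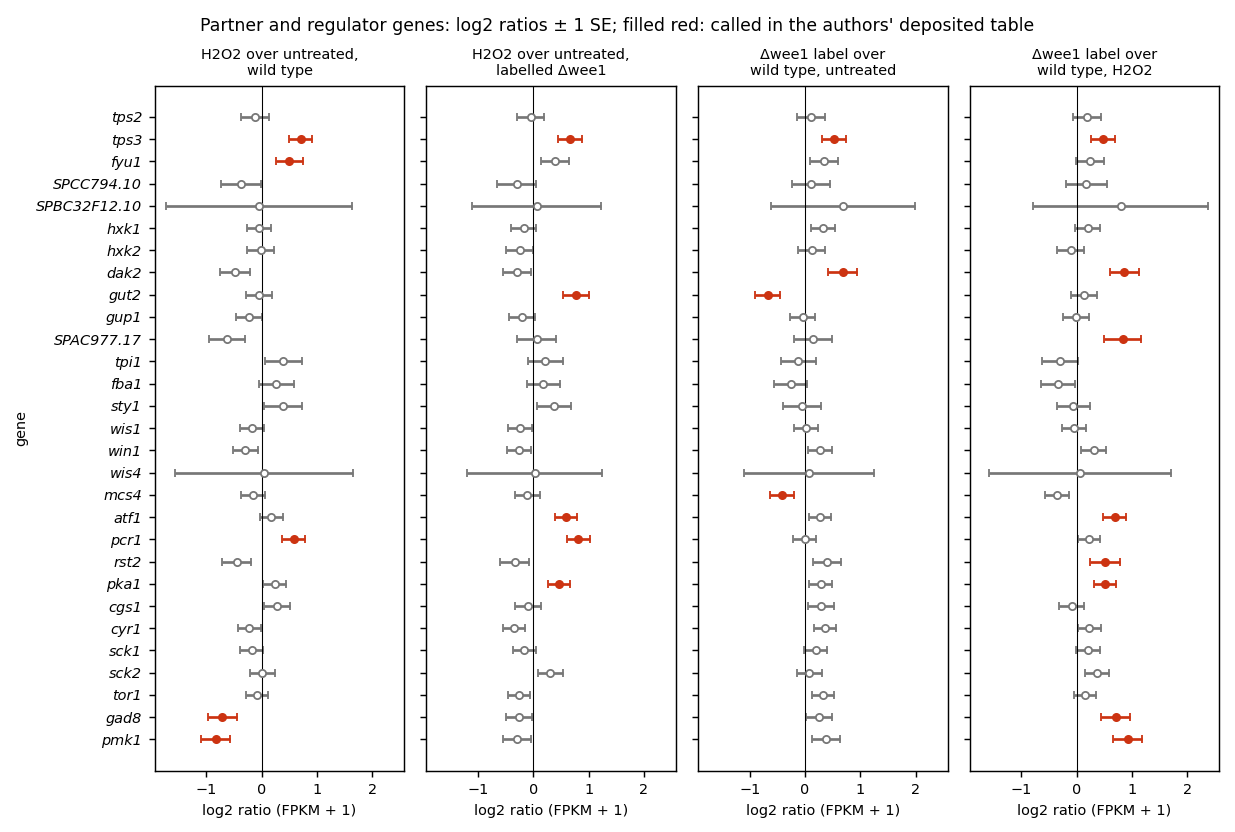
Log2 ratios of FPKM + 1 (x axis) for the measured genes of the trehalose, glycerol and regulator lists (y axis) in the 4 comparisons, with bars of 1 implied standard error; filled red points are called in the authors' deposited table and open grey points are not. tps3 is called in all 4 panels, gut2 is near 0 in wild type (−0.05) and at 0.77 under the ∆wee1 label, and the 5 regulators called in the last panel all lie to the right.

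Between the strains, 1 regulator was called lower under the ∆wee1 label without treatment in the authors' deposited table, where 4.21% of all genes were. After H2O2, 5 were called higher under that label, where 6.51% of all genes were. The first was mcs4, the response regulator upstream of Sty1 (−0.41 ± 0.21). The 5 were atf1 (0.69 ± 0.20), pka1 (0.51 ± 0.20), rst2 (0.51 ± 0.27), gad8 (0.71 ± 0.26) and pmk1 (0.92 ± 0.26). With the implied errors, the 95% intervals of 2 of these called ratios include 0, for mcs4 (−0.83 to 0.005) and rst2 (−0.02 to 1.04). The gene for Sty1 itself was not called, at 137 and 178 FPKM in wild type and 132 and 171 FPKM under the ∆wee1 label. A further 3 regulators, win1, cyr1 and tor1, are called in the authors' deposited table only between the untreated pool labelled ∆wee1 and treated wild type. That pair differs in both label and treatment, and 22.4% of all genes tested are called in it. The median over the 16 regulators was −0.12 and −0.14 for the H2O2 ratios in wild type and under the ∆wee1 label. For the strain ratios it was 0.26 untreated and 0.23 after H2O2. Over all nuclear protein-coding genes the medians were −0.03 for each H2O2 ratio, and 0.03 and 0.05 for these strain ratios.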

How the data were processed

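RNA was read from 8 libraries made with a stranded mRNA kit after TRIzol extraction, per the labels' protocols. The authors used cutadapt, HISAT2 and Cuffdiff, per the submitters' processing notes. The sources used here do not give versions, genome build, annotation or strand setting. The authors deposited 1 FPKM value per gene and group, and, for 6 pairs of groups, log2 fold changes, p-values, q-values and the score of the test, per the file headers. The levels repeated beside the comparisons (2 columns) were not used. Calls are the authors' deposited q-values under 0.05, adjusted over all pairs, with 0.000819 the lowest listed.

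From these a log2 ratio of FPKM + 1 was computed, which understates changes of low genes. The authors' deposited log2 fold change divided by their statistic gave its standard error, and group variances were solved from the 6 pairs. The difference of responses was tested with a normal z test, adjusted by Benjamini-Hochberg over 6108 genes with a mean of at least 1 FPKM. Read on the normal curve, the deposited p-values of the authors imply deviates a median 1.42 times their statistics. Pair errors built without noise from known variances gave those variances back, which checks the algebra and not the size of the errors. Depth is unknown, so no interval from read counts was computed. With 1 value per group, the limma model planned for values per library could not be fitted.

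The members, the gene lists and the motifs were chosen with earlier results of these data known. Every member is named, as is every listed gene called in any pair, the strain markers wee1, ura4 and leu1, and the 3 nearest profiles of each member. leu1, mutated in both strains, stood between 592 and 1044 FPKM. Labelled ∆wee1 over wild type, its log2 ratio was −0.41 ± 0.23 untreated and −0.64 ± 0.23 after H2O2. Of these 2, only the second is called in the authors' deposited table (q-value 0.00280, where 7.01% of all genes are called lower). Upstream windows were read from RefSeq ASM294v3, whose gene edges lay within 50 bases of the files' edges for 57.8% of 1784 loci that hold a single gene. The files place all members but gpd1 in loci of 2 to 7 genes. The alternatives were other pseudocounts, scalings, filters and thresholds. Work was done in Python 3.11.15 with pandas 2.3.3, NumPy 2.4.6, SciPy 1.17.1 and Biopython 1.88.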

Additional observations from a re-analysis of the deposited data

How the results depend on the processing

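Each of the 8 member calls kept its direction under quantile normalization, scaling to summed nuclear protein-coding FPKM and scaling by the median ratio, as did the 5 trehalose-side, 5 glycerol-side and 12 regulator calls, but calls could not be recomputed under those scalings. A minimum of 2-fold left 1 member called in wild type (of 2), 2 under the ∆wee1 label (of 4) and 0 between the strains after H2O2 (of 2), and a q-value under 0.01 also left 0 of those 2. The median of the 7 members in wild type was −0.16 under quantile normalization and −0.02 with scaling to summed nuclear protein-coding FPKM (0.23 as deposited). With scaling by the median ratio it was 0.29. The median between the strains after H2O2 was 0.47 with scaling to summed nuclear protein-coding FPKM (0.16 as deposited). That scaling shifted the median of all nuclear protein-coding genes to −0.27 in wild type, −0.17 under the ∆wee1 label, 0.22 between strains untreated and 0.35 between strains after H2O2, and quantile normalization shifted it to −0.14 in wild type, so changes are to be read relative to those shifts. Of 140 log2 ratios of members under alternatives, 128 moved by less than 1 standard error and 12 by more, and 11 changed sign (1 of them to 0), none of them among the 40 that belong to a called comparison. Of 49 response differences, 1 moved by more than 1 standard error and 1 changed sign, that of gpd2 (−0.17 as deposited, 0.04 under quantile normalization). The 49 include the values under both rescalings of errors, which leave a difference as it is and so could not move. In the test of response differences, errors shrunk by the robust SD gave 1 member (of 0) and 298 genes, and errors shrunk to the authors' p-values, a setting chosen after seeing the data, gave 0 members and 55 genes, against 19. No paired analysis was possible because the files give 1 pooled value per group, so leaving out single libraries was not run either. The upstream windows were chosen after seeing the data. Depth is unknown, and no count limits could be set.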
